A study of Mus musculus with 12 samples.

Results

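Gene expression was compared between kidneys taken after renal ischemia/reperfusion injury (IRI) and control kidneys, all from adult Ybx3 knockout mice. The members were chosen by label alone: 3 knockout libraries after IRI and 3 knockout control libraries, 6 of the 12 libraries of the series. The other 6 came from wild-type kidneys under the same conditions, and every library of either condition in the comparison carries the Ybx3 deletion. Ybx3 encodes DNA-binding protein A (DbpA), which binds nucleic acids through a cold shock domain. The sources used here give neither the time after injury nor the sex and strain of the mice, how many animals stand behind a library, or which piece of Ybx3 was removed.

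In IRI, the renal circulation is cut off for a while and then let in again. The proximal tubule, which reclaims most of the filtrate and runs on mitochondrial fuel oxidation, is the segment most sensitive to it. Injured tubule cells are known to switch on Havcr1 (kidney injury molecule 1, a phagocytic receptor), Lcn2 (neutrophil gelatinase-associated lipocalin, which binds iron carriers of bacteria) and the keratin gene Krt20, to lose transporters and metabolic enzymes, and to send out chemokines and matrix signals while the tubule is repaired.

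The knockout control libraries held 61563411, 67948710 and 67326646 counts and the injured ones 62350202, 64372902 and 39074224, and 19218 of 42748 genes had enough counts to be tested. Levels are CPM, counts per 1000000 counts of the TMM-scaled library, given in the order of replicates 1 to 3. The labels name separate samples without naming animals, so a p-value here measures no more than the spread among these libraries. Kidney identity was clear in every library: the proximal tubule phosphate transporter gene Slc34a1 lay between 918 and 4763 CPM and Umod, the uromodulin gene of the thick ascending limb, between 1239 and 1860.1 CPM. Ybx3 itself, the deleted gene, stood at 12.9, 9.28 and 9.48 CPM in the controls and 13.6, 15.6 and 18.6 CPM after IRI, with no called difference between the groups (log2 fold change 0.59, SE 0.23, edgeR adjusted p = 0.144). The 6 knockout libraries lay below the lowest wild-type library, since wild-type controls held 36.9, 33 and 30.2 CPM and injured wild-type kidneys 81.1, 53.9 and 105 CPM, and the counts left in the knockout cannot be assigned to a part of the gene here.

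The 6 libraries were not alike within their groups, in adrenal and in Y-linked RNA, which the labels do not mention. The summed level of 5 genes of steroid synthesis in the adrenal cortex (Star, Cyp11a1, Cyp11b1, Cyp21a1 and Hsd3b1) was 7.21, 5.57 and 6.23 CPM in the controls, and 272, 1397 and 6.06 CPM after IRI. The summed level of the Y-linked genes was 1.18, 249 and 261 CPM in the controls and 45.2, 227 and 1.26 CPM after IRI. Of Th, Dbh and Pnmt, the catecholamine synthesis genes of the adrenal medulla, the controls held 3.62, 0.0614 and 0.0316 CPM and the injured libraries 9.87, 50.8 and 0.0247 CPM, summed over the 3 genes. Adrenal transcripts were therefore highest in injured replicates 1 and 2. Control replicate 1 held more of the medulla genes than the other controls. Control replicate 1 and injured replicate 3 were low in Y-linked counts where control replicates 2 and 3 and injured replicate 2 were high. A list of sex-biased kidney genes moved with the Y-linked level among the controls, at 2712, 11839 and 11813 CPM, and lay at 3012, 3664 and 2809.6 CPM after IRI. For this reason 2 library comparisons are given beside the test, as differences of log2(CPM + 0.5) without a test of their own. The Y-low pair is injured replicate 3 minus control replicate 1, and its control held the most medulla signal of the 3 controls. The Y-high pair is injured replicate 2 minus the mean of control replicates 2 and 3. The fit was also repeated without injured replicates 1 and 2, called the adrenal libraries here, which leaves 1 injured knockout library whose spread is taken from the other groups.

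**Figure D1:**
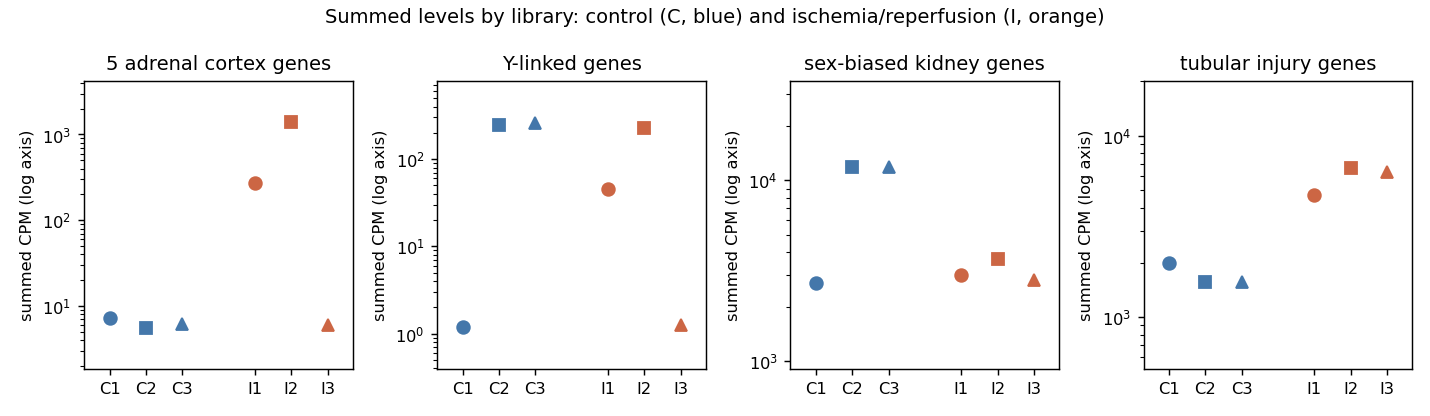
Summed CPM (log axes) of 5 adrenal cortex genes, of the Y-linked genes, of the sex-biased kidney list and of the tubular injury list in the 3 control (C1 to C3, blue) and 3 injured (I1 to I3, orange) knockout libraries, 1 point a library. The adrenal genes stood out in I1 and I2, the Y-linked genes were low in C1 and I3, and the injury list was higher in all 3 injured libraries (4697, 6689.8 and 6291 CPM) than in the controls (1989, 1556 and 1562 CPM).

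Between injured and control knockout kidneys 1215 of the 19218 genes tested differed at an edgeR adjusted p under 0.05, which is 6.32% of them, with 749 higher (3.9%) and 466 lower (2.42%). At least 2-fold changes numbered 415 higher and 263 lower, and at least 4-fold changes 179 and 61. These counts include adrenal genes. Of 352 higher genes with at least 2-fold changes and 1 CPM, 32 differed by less than 0.5 in the Y-low pair defined above. The 32 held Star and other adrenal genes, and also genes without their pattern. Rmi2, for example, stood at 0.905, 0.552 and 0.522 CPM in the controls and 2.3, 1.67 and 1.14 CPM after IRI. With library sizes alone in place of the scaling used, 1152 higher and 379 lower genes were called, a share of 75.2% higher against 61.6%. In what follows a single number in brackets after a gene is its log2 fold change. The median log2 fold change over all genes tested was 0.02. The injured and control libraries did not overlap for 737 of the genes called higher and 459 of those called lower, against 36.2% of all genes tested. Injured replicate 2 was the farthest from the controls for 526 of the 749 genes called higher and 287 of the 466 called lower, replicate 3 for 194 and 135, and replicate 1 for 29 and 44. On the first principal component, with 48.9% of the variance over all 12 libraries, the injured libraries lay at 4.27, 48.3 and 15.9 and the controls at -42.7, -39.2 and -38.4.

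Both pairs are drawn from the libraries of the fit, so their direction is a description and no independent check. In the Y-low pair 737 of the 749 genes called higher were above 0 and all 466 called lower were below it, and in the Y-high pair all 749 and all 466 had the direction of the fit. The medians were 0.84 and 1.09 for genes called higher and -0.66 and -1.10 for genes called lower, in the Y-low and the Y-high pair, against 0.01 and 0.03 over all genes tested. A difference of at least 1 (2-fold) in both pairs was reached by 255 genes called higher and 90 called lower. The number of calls depended on single libraries: it was 178 without control replicate 2, 213 without control replicate 3, 252 without injured replicate 2, 442 without injured replicate 3, 1031 without injured replicate 1 and 1407 without control replicate 1. Without the adrenal libraries 44 genes were called, 42 higher and 2 lower, all 44 of them among the 1215.

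**Figure D2:**
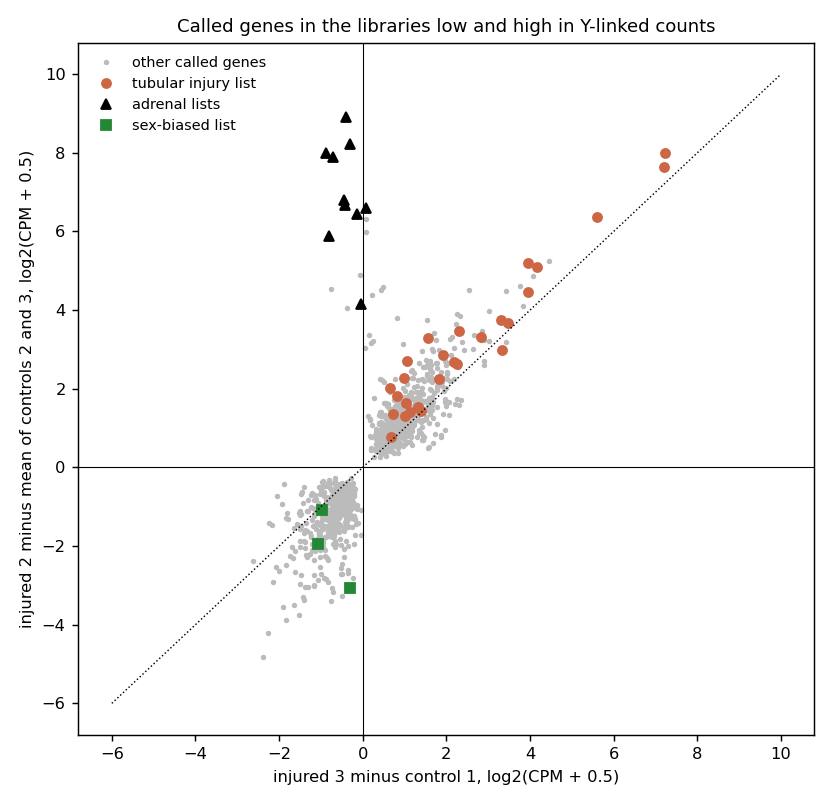
Each point is 1 of the 1215 called genes, with its difference in the Y-low pair (horizontal) and the Y-high pair (vertical), both in log2(CPM + 0.5); the dotted line marks equal differences. Called injury list genes are orange. Over its 37 tested genes that list had medians of 1.32 (Y-low pair) and 2.26 (Y-high pair). Called adrenal genes (triangles) lie between -0.87 and 0.07 in the Y-low pair and between 4.16 and 8.90 in the Y-high pair. The sex-biased gene Slc22a28 (square farthest below) lies at -0.31 and -3.06.

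Adrenal genes were kept apart from the kidney response. Star, which carries cholesterol into mitochondria for steroid synthesis, stood at 5.01, 4.93 and 5.05 CPM in the controls and 107, 535 and 5.29 CPM after IRI. Cyp11a1, the side-chain cleavage enzyme, stood at 0.276, 0.0767 and 0.0633 CPM in the controls and 32.5, 169 and 0.124 CPM after IRI, and Cyp11b1, the 11-beta-hydroxylase of corticosterone synthesis, at 0.383, 0 and 0.0475 CPM in the controls and 46.7, 250.2 and 0.173 CPM after IRI. All 3 were high in injured replicates 1 and 2 and at the level of the controls in injured replicate 3. Of 15 tested adrenal cortex genes 7 were called higher, and of 11 adrenal medulla genes 3 (the granin genes Chga, Chgb and Scg2); 12 called genes in all were not above every control in injured replicate 3, and besides these lists they included Atp2b3, Gsg1l and the pseudogene Cyp21a2-ps. Gml2 and Caln1, which are on neither list, followed the same libraries, with Gml2 at 0.261, 0.276 and 0.285 CPM in the controls and 9.24, 49.4 and 0.297 CPM after IRI and Caln1 at 0.598, 0.629 and 0.538 CPM in the controls and 17.7, 86.4 and 0.668 CPM after IRI. Without the adrenal libraries no adrenal gene was called (log2 fold change of Star 0.06, Cyp11b1 0.23). How adrenal RNA came into these libraries was not tested; these genes are part of the counts over all genes, those beside wild type included, and of none of the kidney lists. Each call named here, apart from Atp2b3, Cyp21a2-ps and Gsg1l, which were not checked, ended on leaving out at least 1 of injured replicates 1 and 2 and control replicates 1, 2 and 3 (edgeR adjusted p from 0.0506 to 0.2).

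The 3 injury markers rose from low levels in every injured library. Havcr1 went from 0.859, 1.09 and 1.57 CPM in the controls to 234, 463 and 204 CPM after IRI (log2 fold change 8.0, SE 0.48, edgeR adjusted p = 6.3e-05). Lcn2 went from 0.828, 0.675 and 0.664 CPM to 42.3, 95.5 and 64.3 CPM (log2 fold change 6.54, SE 0.60, edgeR adjusted p = 0.00077). Krt20 went from 0.445, 0.0921 and 0.142 CPM to 79.1, 123 and 138 CPM (log2 fold change 8.95, SE 0.95, edgeR adjusted p = 0.00167). For each of them every injured library lay far above every control library, with the lowest injured level of Havcr1 in replicate 3 and of Lcn2 and Krt20 in replicate 1. In the Y-low pair, which leaves out injured replicates 1 and 2, the differences were 7.24, 5.61 and 7.19, and in the Y-high pair 7.99, 6.36 and 7.65. Without control replicate 1, which held the most Krt20 of the controls, the log2 fold change of Krt20 was 9.89. All 3 were called in each of the 17 alternative settings, the fit without the adrenal libraries included.

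The start regions of these 3 genes, and of Cxcl1 and Fgb, a pair chosen after their letters and values were seen because they rose with the markers and hold a searched motif, are given here. They run from 250 bases before to 50 after the transcription start in RefSeq's GRCm38.p6 and are written 5′ to 3′. Havcr1 (chr11:46739973-46740272, plus strand) has 3 annotated starts, of which 1 is shown; Lcn2 (chr2:32387690-32387989, minus strand), Krt20 (chr11:99438104-99438403, minus strand), Cxcl1 (chr5:90890995-90891294, plus strand) and Fgb (chr3:83049814-83050113, minus strand) have 1 each. Capitals mark a match to a searched motif.

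Havcr1: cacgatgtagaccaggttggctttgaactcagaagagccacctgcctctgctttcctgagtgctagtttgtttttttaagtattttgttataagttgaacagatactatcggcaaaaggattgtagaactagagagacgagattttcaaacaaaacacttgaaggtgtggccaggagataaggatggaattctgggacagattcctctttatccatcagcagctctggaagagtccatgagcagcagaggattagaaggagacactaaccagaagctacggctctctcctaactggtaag
Lcn2: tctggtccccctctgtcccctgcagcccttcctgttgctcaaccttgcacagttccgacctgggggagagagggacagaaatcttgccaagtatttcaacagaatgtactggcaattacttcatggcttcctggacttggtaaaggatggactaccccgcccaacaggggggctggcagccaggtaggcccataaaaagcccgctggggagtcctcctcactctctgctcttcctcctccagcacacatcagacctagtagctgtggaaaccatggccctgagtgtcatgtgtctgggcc
Krt20: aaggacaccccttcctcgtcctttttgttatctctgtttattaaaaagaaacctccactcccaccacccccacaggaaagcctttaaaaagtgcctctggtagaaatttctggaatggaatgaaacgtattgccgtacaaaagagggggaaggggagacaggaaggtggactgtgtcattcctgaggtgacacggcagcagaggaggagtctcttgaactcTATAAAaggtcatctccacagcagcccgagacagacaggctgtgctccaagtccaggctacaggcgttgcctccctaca
Cxcl1: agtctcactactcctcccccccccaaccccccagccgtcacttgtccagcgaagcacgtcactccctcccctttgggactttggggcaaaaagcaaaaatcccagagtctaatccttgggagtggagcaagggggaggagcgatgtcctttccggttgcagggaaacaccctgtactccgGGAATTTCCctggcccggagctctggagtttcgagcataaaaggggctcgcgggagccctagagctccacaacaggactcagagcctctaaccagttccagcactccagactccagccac
Fgb: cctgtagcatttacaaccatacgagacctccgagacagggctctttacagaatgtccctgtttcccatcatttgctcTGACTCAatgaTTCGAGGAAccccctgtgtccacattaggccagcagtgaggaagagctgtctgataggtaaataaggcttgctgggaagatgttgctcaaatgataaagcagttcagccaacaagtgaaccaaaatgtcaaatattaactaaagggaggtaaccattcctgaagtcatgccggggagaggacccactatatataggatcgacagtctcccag

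The motifs searched on both strands were TGANTCA (AP-1), GGANTTTCC (NF-kB), TTCNNNGAA (STAT), TGATGNAA (ATF4), GTTAATNAT (HNF1) and CAAAGTCCA (HNF4), and TATAAA (the TATA box), added after the data were seen; no matched stretches overlap in the windows shown. In the Krt20 window TATAAA starts at position -29, counted from the start site. The Cxcl1 window holds GGAATTTCC at position -70, and the Fgb window TGACTCA at -173 and TTCGAGGAA at -162. No match was found in the Havcr1 and Lcn2 windows, which says only that these letters are not in this stretch. AP-1 letters were present in 5.89% of 13151 tested genes with a window, 9.96% of 532 called higher and 8.31% of 337 called lower. STAT letters were present in 7.06%, 8.27% and 8.31% of the same sets, and TATAAA in 8.35%, 12.8% and 11.9%. NF-kB letters were present in 1.35% of 13151 tested genes with a window, 1.69% of 532 called higher and 0.593% of 337 called lower, and HNF1 letters in 0.646%, 0.564% and 2.08%. A match is a description of the letters, not a site of binding.

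**Figure D3:**
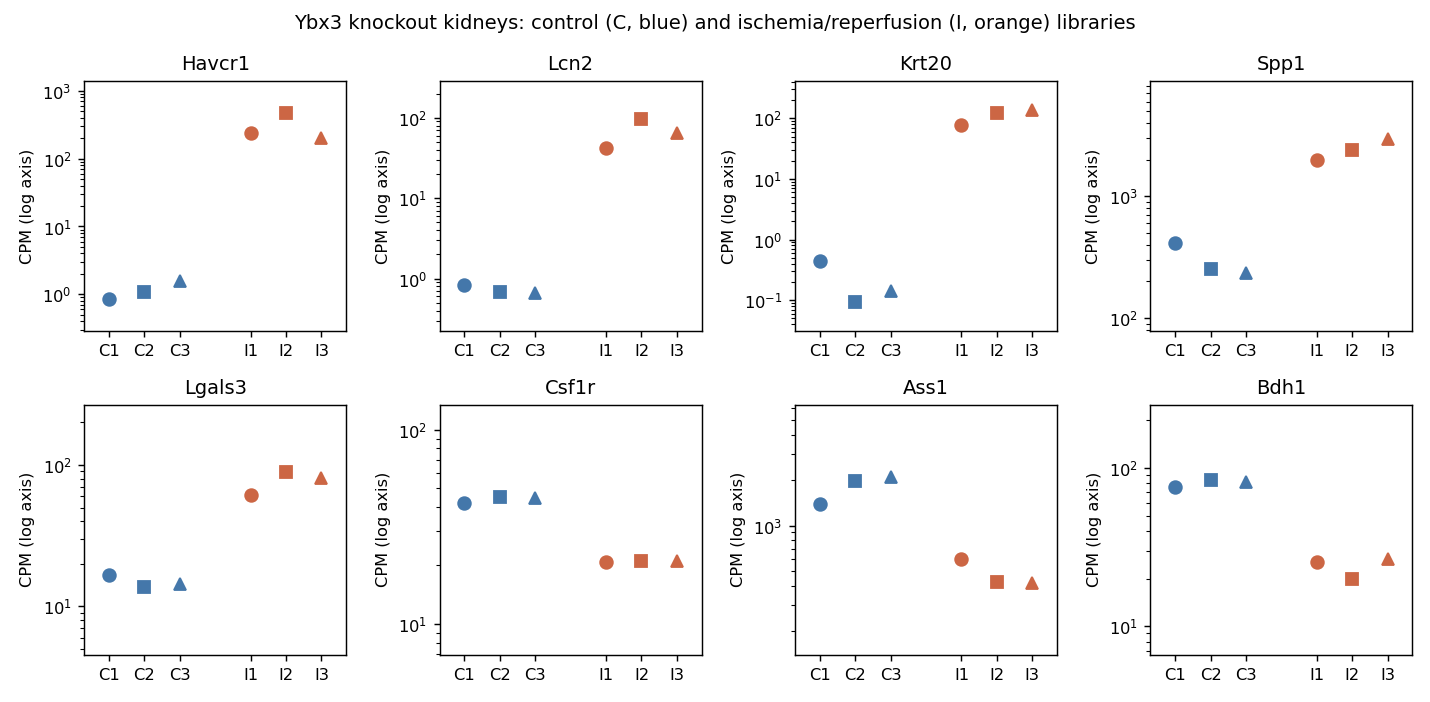
CPM on log axes of 8 genes in each of the 3 control (C1 to C3, blue) and 3 injured (I1 to I3, orange) knockout libraries, 1 point a library. Havcr1, Lcn2, Krt20, Spp1 and Lgals3 were higher and Csf1r, Ass1 and Bdh1 lower in every injured library than in every control, and Csf1r lay between 20.8 and 21.2 CPM in the 3 injured libraries.

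Genes of the injured and repairing tubule rose together. Of 37 tested members of that list, 27 were called higher and 0 lower, with a median log2 fold change of 1.61; with 1 knockout library left out the count ran from 15 to 30, and without the adrenal libraries it was 6. The median was 1.32 in the Y-low pair, 2.26 in the Y-high pair and 1.43 without the adrenal libraries. Spp1, which encodes the secreted matricellular protein osteopontin, stood at 414, 251 and 234 CPM in the controls and 1999, 2405 and 2946 CPM after IRI (log2 fold change 3.03, SE 0.26, edgeR adjusted p = 0.000753). Lgals3, the galectin-3 gene, stood at 16.6, 13.6 and 14.4 CPM in the controls and 61.3, 89 and 81 CPM after IRI (log2 fold change 2.37, SE 0.18, edgeR adjusted p = 0.000469). Both were higher in every injured library than in every control and were called in all 17 settings. The 3 chain genes of fibrinogen, best known from the liver, rose: Fga from 11, 9.68 and 13.3 to 115, 265 and 178 CPM (log2 fold change 4.04, SE 0.54, edgeR adjusted p = 0.0044), Fgb by 4.91 and Fgg by 4.65. The intermediate filament genes Krt8 (1.88), Krt18 (1.31) and Vim (1.17), the clusterin gene Clu (1.34), the adhesion receptor gene Cd44 (1.32), the annexin gene Anxa2 (1.61) and Tnfrsf12a, the receptor for the cytokine TWEAK (3.43), were also called higher, all as log2 fold changes. Plin2, which coats lipid droplets, went from 41.5, 41.4 and 44.1 to 176, 577 and 412 CPM (log2 fold change 3.2, SE 0.62, edgeR adjusted p = 0.0162). Saa3, an acute phase serum amyloid gene, rose from at most 0.046 CPM in the controls to 0.508, 2.33 and 0.717 CPM (log2 fold change 5.42, SE 1.46, edgeR adjusted p = 0.048), with log2 fold changes of 4.42 without injured replicate 2 and 6.07 without control replicate 1. Tunar, 1700001F09Rik and Gm3676, at no more than 0.0949 CPM in any control, reached 0.354, 1.76 and 1.26 CPM, 1.0, 3.16 and 1.11 CPM and 0.447, 1.94 and 1.01 CPM. The calls of Fgb, 1700001F09Rik, Fga, Spp1, Lgals3, Krt8, Clu, Cd44, Vim, Tnfrsf12a and Fgg held with any 1 knockout library left out, and each of the other calls named with these ended on leaving out at least 1 of the 6 knockout libraries (edgeR adjusted p from 0.0501 to 0.187).

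**Figure D4:**
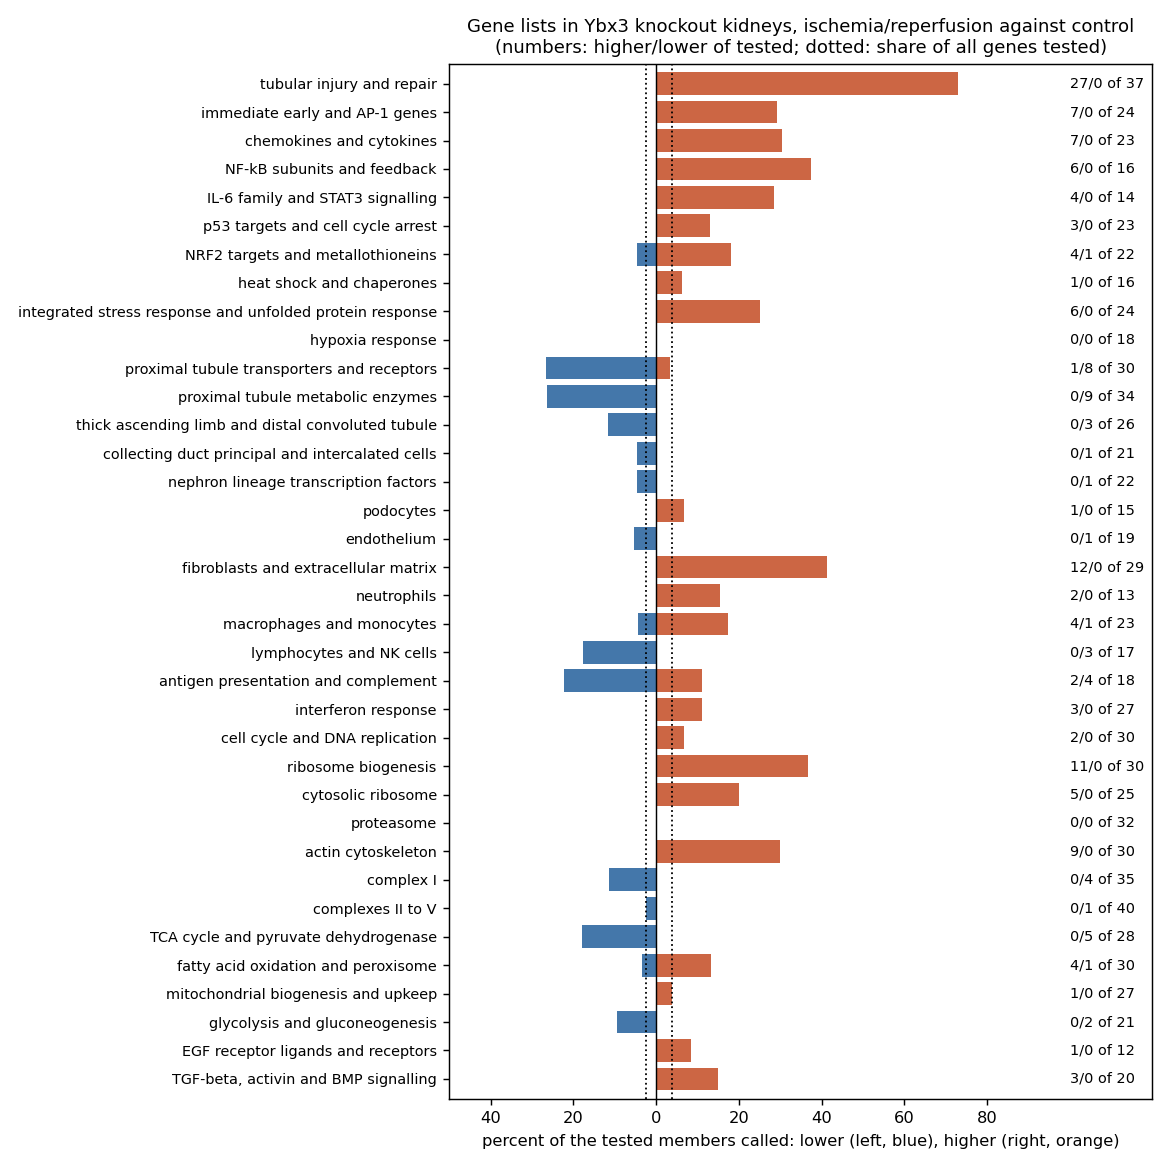
For 36 gene lists, the percentage of tested members called higher (right, orange) or lower (left, blue) in knockout kidneys after IRI, with the counts at the right; dotted lines mark the share of all genes tested, 3.9% higher and 2.42% lower. The tubular injury list reached 27 of 37 higher, matrix genes 12 of 29 and ribosome biogenesis genes 11 of 30. Lower calls included 8 of 30 and 9 of 34 in the 2 proximal tubule lists. They also included 4 of 18 antigen presentation and complement genes, 5 of 28 TCA cycle genes and 3 of 17 lymphocyte genes.

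Of the 1215 calls, 39 held in all 17 alternative settings, 37 higher and 2 lower; they were picked out after their values were seen and are a description. Besides the markers they held genes of very different roles. Serpina3n, a secreted protease inhibitor of the acute phase, went from 0.583, 0.246 and 0.807 to 11.6, 24.7 and 14.1 CPM (log2 fold change 4.94, SE 0.60, edgeR adjusted p = 0.00366). Il1rn, the natural blocker of the interleukin 1 receptor, went from 0.0767, 0.0767 and 0.0949 to 1.06, 1.44 and 2.42 CPM (log2 fold change 4.26, SE 0.42, edgeR adjusted p = 0.000982). Aldh1a2, a retinoic acid synthesis enzyme, went from 6.04, 5.63 and 4.81 to 37.6, 62.4 and 46.9 CPM (log2 fold change 3.16, SE 0.37, edgeR adjusted p = 0.00304). In none of the 3 did the groups overlap. Lrg1, a secreted leucine-rich glycoprotein, rose by a log2 fold change of 3.61, the filamin gene Flnc by 3.4, the growth factor gene Fgf18 by 3.48, the stratifin gene Sfn by 2.7, S100a10, a partner of annexin A2, by 2.05, the fibronectin receptor subunit Itga5 by 1.25 and the thrombin receptor gene F2r by 1.29. The long noncoding RNAs Gm29371 and Gm12840 rose by 4.53 and 4.25. The 2 lower genes were Csf1r, at 42, 44.8 and 44.7 CPM in the controls and 20.8, 21 and 21.2 CPM after IRI, and Bdh1, which interconverts ketone bodies, at 75.7, 83.5 and 81.8 CPM in the controls and 25.6, 19.8 and 26.4 CPM after IRI (log2 fold change -1.75, SE 0.16, edgeR adjusted p = 0.00077). Without control replicate 1 the log2 fold change of Gm12840 was 4.91, and without injured replicate 2 that of Fgf18 was 2.87.

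Signalling genes were called higher in part, and none of 4 lists held a lower call. Among chemokines and cytokines 7 of 23 were higher (median log2 fold change 1.45); with 1 knockout library left out the count ran from 1 to 7, and without the adrenal libraries it was 0. Cxcl1, a chemokine that draws neutrophils, went from 0.353, 0.169 and 0.206 to 5.79, 19.7 and 13.8 CPM (log2 fold change 5.74, SE 0.94, edgeR adjusted p = 0.00849). Lif, a cytokine of the IL-6 family, went from 0.598, 0.737 and 0.649 to 2.66, 8.17 and 3.64 CPM (log2 fold change 2.87, SE 0.60, edgeR adjusted p = 0.021). Both were lowest in injured replicate 1 and highest in replicate 2 among the injured libraries, which did not overlap with the controls. Csf1 and Il34, the 2 ligands of the receptor Csf1r, rose by 1.47 and 2.14, and Ccl7, Cxcl5 and Cx3cl1 were also called. Of 16 NF-kB genes 6 were higher (median 0.63, 1 without the adrenal libraries): the subunit genes Nfkb2 (1.44) and Relb (1.45), the regulators Bcl3 (2.29), Nfkbiz (1.51) and Nfkbie (0.66), and the adhesion molecule target Icam1 (1.44). Nfkb2 stood at 14.2, 13.6 and 14.4 CPM in the controls and 29.5, 46.6 and 38.3 CPM after IRI, without overlap, and was called in all 17 settings. In the IL-6 and STAT3 list 4 of 14 were higher (median 0.23, 0 called without the adrenal libraries): Socs3, the feedback inhibitor (2.78), Stat3 (1.4), Socs2 (1.39) and the oncostatin M receptor gene Osmr (1.39). Of 24 immediate early and AP-1 genes 7 were higher (median 1.23, 0 called without the adrenal libraries), with Egr2 (3.32), Myc (2.64), Fosl1 (2.49) and Atf3 (2.44) the largest, and Fos not called (log2 fold change 1.29, SE 0.50, edgeR adjusted p = 0.15). The log2 fold change of Lif was 2.22 without injured replicate 2, and that of Egr2 3.94 without control replicate 1. The calls of Egr2, Csf1r, Nfkb2 and Csf1 held with any 1 knockout library left out, and each of the other calls named with these ended on leaving out at least 1 of the 6 knockout libraries (edgeR adjusted p from 0.0508 to 0.185).

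Some genes of the stress lists were called higher, where 3.9% of all genes tested were. Of 22 NRF2 target and metallothionein genes 4 rose and 1 fell (median log2 fold change 0.47). With 1 knockout library left out, 0 to 4 of them were called higher. Hmox1, which breaks down heme, stood at 8.08, 10.2 and 11.7 CPM in the controls and 40.03, 92.1 and 26.6 CPM after IRI (log2 fold change 2.4, SE 0.55, edgeR adjusted p = 0.0306). Fth1, the ferritin heavy chain that stores iron, stood at 715, 1106 and 1101 CPM in the controls and 1613, 1782 and 1904 CPM after IRI (log2 fold change 0.86, SE 0.22, edgeR adjusted p = 0.0421). Nqo1, a quinone reductase (1.13), and Mt2, a metallothionein (2.65), rose; Sod2, the superoxide dismutase of mitochondria, fell (-0.80). Injured replicate 2 held the most Hmox1, and injured replicate 3 the least of the 3, still above each control; without injured replicate 2 the log2 fold change of Hmox1 was 1.71. The integrated stress and unfolded protein response list had 6 of 24 higher (median 0.50), led by the serine synthesis gene Psat1 (1.93), with Xbp1 at 1.06 and Atf5 at 1.03. Its count of higher genes ran from 0 to 7 with 1 knockout library left out. Mthfd2, a mitochondrial folate enzyme of the same list (1.44), differed by 0.46 in the Y-low pair and 2.21 in the Y-high pair. Of 23 p53 and arrest genes 3 were higher (median 0.34), namely Gdf15 (2.93), Aen (1.0) and the death effector gene Bax (0.68). Heat shock genes had 1 higher of 16 (median 0.25), Hspb8, whose difference was 0.26 in the Y-low pair. Hypoxia response genes had 0 higher and 0 lower of 18 (median -0.02). Without the adrenal libraries none of these 5 lists held a call. Each call named here ended on leaving out at least 1 of the 6 knockout libraries (edgeR adjusted p from 0.0511 to 0.225).

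Some genes of the differentiated proximal tubule fell. Of 30 transporter and receptor genes 8 were lower and 1 higher (median log2 fold change -0.85), and of 34 metabolic enzyme genes 9 were lower and 0 higher (median -1.12). In the Y-low pair these medians were -0.39 and -0.64, and in the Y-high pair -1.31 and -1.59. Slc34a1, the main phosphate transporter of the brush border, stood at 2788, 4179.6 and 4763 CPM in the controls and 2058, 918 and 1375 CPM after IRI (log2 fold change -1.43, SE 0.37, edgeR adjusted p = 0.0457). Slc6a19, which takes up neutral amino acids, stood at 356, 309 and 484 CPM in the controls and 226, 107 and 125 CPM after IRI (log2 fold change -1.33, SE 0.30, edgeR adjusted p = 0.0306), and Slc5a2, the glucose transporter SGLT2, at 227, 246 and 292 CPM in the controls and 174, 112 and 120.1 CPM after IRI (log2 fold change -0.91, SE 0.21, edgeR adjusted p = 0.0328). Every injured library was below every control for all 3, with the lowest level in injured replicate 2. Ass1, which makes argininosuccinate for arginine synthesis, stood at 1399, 1963 and 2104 CPM in the controls and 602, 424 and 418 CPM after IRI (log2 fold change -1.92, SE 0.27, edgeR adjusted p = 0.00522). The fructose bisphosphatase gene Fbp1 (-1.26), the sorbitol dehydrogenase gene Sord (-1.26), Fah of tyrosine breakdown (-0.73) and the acyl-CoA synthetase gene Acsm1 (-1.15) were lower. The organic anion transporter gene Slc22a7 (-1.84), the acyl-CoA synthetase gene Acsm2 (-1.91) and Ttc36 (-1.97) fell further. Control replicate 1 held 797 CPM of Acsm2, against 2579 and 2621 CPM in control replicates 2 and 3. The lower transporter calls also held the sex-biased gene Slc22a28 (-2.61), whose groups overlapped and whose difference was -0.31 in the Y-low pair. Slc13a1, a sulfate transporter, was the only higher call among the transporters, at 275, 259.8 and 301 CPM in the controls and 585, 916 and 722 CPM after IRI (log2 fold change 1.41, SE 0.36, edgeR adjusted p = 0.0431). Beside these calls, the endocytic receptor genes Lrp2 (megalin) and Cubn (cubilin) had log2 fold changes of -1.12 and -0.74 without a call (edgeR adjusted p = 0.0641 and 0.116). With 1 knockout library left out, 0 to 12 transporters and 2 to 13 enzymes were called lower, and none without the adrenal libraries, where the medians were -0.93 and -1.24. In bulk RNA, fewer tubule cells and less RNA per tubule cell cannot be told apart. The calls of Ass1 and Fah held with any 1 knockout library left out, and each of the other calls named with these ended on leaving out at least 1 of the 6 knockout libraries (edgeR adjusted p from 0.0501 to 0.171). That range is given for the calls other than Slc22a28.

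The largest decreases among named genes fell into those shared by all controls and those set by control replicates 2 and 3. Slc5a4a, of the sodium-glucose cotransporter family, stood at 19, 29.5 and 34.4 CPM in the controls and 2.62, 0.652 and 3.22 CPM after IRI (log2 fold change -3.69, SE 0.55, edgeR adjusted p = 0.00604). C8b, a complement component, stood at 4.09, 4.08 and 4.48 CPM in the controls and 0.37, 0.133 and 0.544 CPM after IRI (log2 fold change -3.64, SE 0.52, edgeR adjusted p = 0.00522), and Mep1b, the beta chain of the brush border protease meprin, at 66.8, 159 and 151 CPM in the controls and 21.3, 13.4 and 21.1 CPM after IRI (log2 fold change -2.76, SE 0.40, edgeR adjusted p = 0.00522). Kcnt1, a sodium-activated potassium channel gene, stood at 56.3, 36.9 and 21.5 CPM in the controls and 6.04, 5.22 and 8.76 CPM after IRI (log2 fold change -2.52, SE 0.49, edgeR adjusted p = 0.016). These 4 were lower in every injured library than in every control, control replicate 1 included, by at least 4-fold in the Y-low pair for Slc5a4a, C8b and Kcnt1. Kcng1, a potassium channel subunit gene, stood at 0.23, 4.83 and 3.73 CPM in the controls and 0.139, 0.178 and 0.124 CPM after IRI, AI481877 at 0.23, 3.77 and 3.7 CPM in the controls and 0.139, 0.163 and 0.0742 CPM after IRI, and the methyltransferase gene Inmt at 50.2, 289 and 278 CPM in the controls and 20.4, 27 and 18.6 CPM after IRI. For Kcng1 and AI481877 control replicate 1 lay just above the injured libraries, and the Y-low pair differed by -0.23 and -0.35, against -2.82 and -2.68 in the Y-high pair. Inmt, the reductase gene Akr1c14, Idi1 of cholesterol synthesis, C1qtnf3 and Pde6a lay between, at -1.41, -0.76, -0.84, -1.16 and -0.99 in the Y-low pair and -3.37, -3.39, -2.92, -3.0 and -2.71 in the Y-high pair. The sex-biased kidney list had 3 lower of 18, with a median log2 fold change of -1.83 in the fit, -0.24 in the Y-low pair and -1.92 in the Y-high pair. Among all 466 genes called lower, control replicate 1 was at least 2-fold below both other controls for 56, and among all 19218 tested genes for 430. What part the Y-linked difference has in these values was not tested beyond the pairs and a fit with that level as a covariate, which called 1111 genes. The calls of Slc5a4a, C8b, Mep1b and Idi1 held with any 1 knockout library left out, and each of the other calls named with these ended on leaving out at least 1 of injured replicates 1, 2 and 3 and control replicates 2 and 3 (edgeR adjusted p from 0.0527 to 0.124).

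Further along the nephron fewer genes were called, beside 2.42% called lower over all genes tested. Of 26 thick ascending limb and distal convoluted tubule genes 3 were lower and 0 higher (median log2 fold change -0.51): the calcium-binding protein gene Calb1 (-1.11), the prostaglandin receptor gene Ptger3 (-0.99) and Fxyd2, a subunit of the sodium pump (-0.65). Egf, the growth factor made by the distal nephron, stood at 1827, 1602 and 1587 CPM in the controls and 566, 129 and 479 CPM after IRI. Its injured libraries lay below the controls without overlap, with the lowest in replicate 2, and the difference did not pass the threshold (log2 fold change -2.1, SE 0.58, edgeR adjusted p = 0.0571). The log2 fold change of Umod was 0.25 (edgeR adjusted p = 0.58), and that of Slc12a1, the sodium-potassium-chloride transporter of the same segment, -1.2 (edgeR adjusted p = 0.178). Of 21 collecting duct genes 1 was called, the basolateral water channel gene Aqp4, at 75.5, 38.7 and 34.5 CPM in the controls and 10.9, 13.3 and 15.6 CPM after IRI (log2 fold change -1.9, SE 0.36, edgeR adjusted p = 0.0147), with a list median of -0.25. Aqp2, the vasopressin-regulated water channel, had 0.27 (edgeR adjusted p = 0.691). Of 22 nephron lineage transcription factors 1 was called, Maf (-0.84), with a median of -0.17, and Hnf4a of the proximal tubule had -0.53 (edgeR adjusted p = 0.134). Without the adrenal libraries no gene of these 3 lists was called. Each call named here ended on leaving out at least 1 of the 6 knockout libraries (edgeR adjusted p from 0.0584 to 0.161).

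Immune genes were called in both directions. Cd68, a lysosomal protein of macrophages, stood at 1.47, 2.06 and 1.53 CPM in the controls and 6.1, 6.31 and 7.32 CPM after IRI (log2 fold change 1.96, SE 0.17, edgeR adjusted p = 0.00077). Plac8 stood at 4.32, 5.09 and 4.35 CPM in the controls and 11.9, 14.2 and 13.1 CPM after IRI (log2 fold change 1.51, SE 0.14, edgeR adjusted p = 0.00077). Csf1r, the receptor that macrophages need for survival, was about 2-fold lower (log2 fold change -1.06, SE 0.09, edgeR adjusted p = 0.000469). The 3 were called in all 17 settings, with no overlap between the groups. Of 23 macrophage and monocyte genes 4 were higher, Cd14 (2.2) and Cx3cr1 (0.61) being the others, and 1 lower (median 0.57), while Adgre1, the F4/80 marker gene, had -0.07 (edgeR adjusted p = 0.912). The MHC class II genes H2-Aa, H2-Eb1 and H2-Ab1 and the invariant chain gene Cd74 fell, with log2 fold changes of -1.19, -1.19, -1.01 and -1.08. H2-Aa stood at 21.4, 29.98 and 17.8 CPM in the controls and 9.52, 10.2 and 10.6 CPM after IRI, and the injured libraries lay within 9.52 to 10.6 CPM. The complement genes C3 and C5ar1, the receptor for C5a, rose by 2.42 and 1.88, so that the antigen presentation and complement list held 2 higher and 4 lower of 18 (median 0.09). Without control replicate 1, which held 67.7 CPM of C3 against 15.9 and 20.6 CPM, the C3 log2 fold change was 3.35. Of 17 lymphocyte genes 3 were lower (median -0.97): the T cell genes Cd3d (-2.44) and Cd2 (-1.51), both under 1 CPM, and Ptprc, the CD45 gene of all leukocytes (-0.58). The neutrophil list had 2 higher of 13 (median 2.41). The median ran from 1.13 to 1.88 with 1 knockout library left out, over the 15 or 16 members that then passed the filter on low counts. Over the 13 members it was 0.57 in the Y-low pair and 0.64 in the Y-high pair on the log2(CPM + pseudocount) scale. The summed list lay at 15.2, 13.4 and 16.2 CPM in the controls and 13.6, 16.9 and 18.2 CPM after IRI. The 2 calls were S100a8, at 0.0613, 0.046 and 0.0316 CPM in the controls and 0.709, 1.32 and 1.24 CPM after IRI, and S100a9, at 0.0613, 0.046 and 0.0633 CPM in the controls and 1.06, 2.22 and 1.24 CPM after IRI. Interferon response genes had 3 higher of 27 (median 0.34), Isg15 (1.09), Oasl2 (0.79) and Irf9 (0.60). The summed red cell list was 172, 66.4 and 129 CPM in the controls and 50.2, 32.8 and 38.3 CPM after IRI, with 0 called of 4, and its part in the blood cell values was not tested. Without the adrenal libraries Cd68, Plac8 and Csf1r were the calls left on these 5 lists. The calls of S100a9, Cd68, Plac8, Csf1r, C5ar1, H2-Aa, H2-Eb1 and Cd74 held with any 1 knockout library left out, and each of the other calls named with these ended on leaving out at least 1 of the 6 knockout libraries (edgeR adjusted p from 0.0562 to 0.208).

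A good part of the matrix and stromal genes rose. Of 29 tested genes 12 were higher and 0 lower (median log2 fold change 0.90, 0.84 in the Y-low pair); with 1 knockout library left out the count ran from 5 to 13, and without the adrenal libraries it was 0, with a median of 0.86. Col4a1, a basement membrane collagen chain, stood at 318, 384 and 358 CPM in the controls and 618, 717 and 669 CPM after IRI (log2 fold change 0.92, SE 0.14, edgeR adjusted p = 0.00702), and Col4a2, the partner chain read from the same locus, rose by 0.76. Pdgfrb, the PDGF receptor of pericytes and fibroblasts, stood at 74.8, 70.9 and 63.6 CPM in the controls and 131, 137 and 134 CPM after IRI (log2 fold change 0.94, SE 0.14, edgeR adjusted p = 0.00604). In both the 3 injured libraries lay close together and above every control. Sparc (1.2), the tenascin gene Tnc (2.14), the matrix protease gene Mmp3 (2.39), the thrombospondin gene Thbs1 (1.1), the cross-linking enzyme genes Lox (1.4) and Loxl1 (1.01, not on the list) and Tgfb1 (0.90) were higher. In the TGF-beta list 3 of 20 were higher (median 0.25), Tgfb1 and the activin subunit genes Inhba (1.63) and Inhbb, at 0.905, 1.46 and 1.01 CPM in the controls and 5.71, 15.7 and 10.8 CPM after IRI (log2 fold change 3.25, SE 0.69, edgeR adjusted p = 0.0224). Nrg1, a ligand of ErbB receptors, was the call among 12 EGF receptor family genes (median 0.32), at 35.8, 31.8 and 38.5 CPM in the controls and 70.6, 174 and 107 CPM after IRI (log2 fold change 1.73, SE 0.39, edgeR adjusted p = 0.0278). In the endothelium Kdr, a VEGF receptor gene, fell (log2 fold change -0.65, SE 0.12, edgeR adjusted p = 0.012) while Pecam1, an adhesion molecule of the same cells, had 0.19 (edgeR adjusted p = 0.358), with 1 call in 19 genes (median 0.05). Of 15 podocyte genes 1 was called, Plce1 (0.56), with a median of 0.14. Over all genes tested 6.32% were called, and the single calls of the endothelium and podocyte lists lie near that share. The log2 fold change of Mmp3 was 3.32 without control replicate 1. The calls of Tgfb1, Loxl1, Col4a1, Col4a2, Pdgfrb and Sparc held with any 1 knockout library left out, and each of the other calls named with these ended on leaving out at least 1 of the 6 knockout libraries (edgeR adjusted p from 0.0512 to 0.187).

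Some genes that build ribosomes and the cytoskeleton rose, by small factors. All 30 of 30 ribosome biogenesis genes had a log2 fold change above 0 (median 0.55), and 11 were called. Nop56, of the box C/D RNA-modifying particle, stood at 9.28, 11.8 and 11.4 CPM in the controls and 18.2, 27.7 and 25.6 CPM after IRI (log2 fold change 1.13, SE 0.22, edgeR adjusted p = 0.0162), and Npm1, the nucleophosmin gene, at 49.8, 52.8 and 55 CPM in the controls and 67.3, 98.1 and 87.7 CPM after IRI (log2 fold change 0.68, SE 0.17, edgeR adjusted p = 0.0433). Injured replicate 1 was the nearest to the controls in both, and the groups did not overlap. Of 25 ribosomal protein genes 25 were above 0 (median 0.31) and 5 were called, with Rpl12 the largest, at 55.3, 53.5 and 51.7 CPM in the controls and 81, 93.2 and 97 CPM after IRI (log2 fold change 0.76, SE 0.11, edgeR adjusted p = 0.00672); processed pseudogenes share their sequence, so these counts are uncertain. The biogenesis count was 5 with RLE scaling, 17 with library sizes alone, 1 without control replicate 1, and 0 without control replicate 2 or 3, injured replicate 2 or 3, or the adrenal libraries, where the median was 0.58. The ribosomal protein count was 12 with library sizes alone and 1 to 3 with 1 knockout library left out. Of 30 cytoskeleton genes 9 were higher (median 0.46; with 1 knockout library left out the count ran from 2 to 9, and without the adrenal libraries it was 1), with Tagln2, the transgelin 2 gene, at 42.5, 39.8 and 40.1 CPM in the controls and 82.2, 94.7 and 96.1 CPM after IRI (log2 fold change 1.16, SE 0.12, edgeR adjusted p = 0.00161), Actn1 at 1.13, Tpm4 at 1.0 and Myh9, the nonmuscle myosin heavy chain, at 0.78. Tagln2 and Tubb5, a beta tubulin gene outside the list (1.18), were called in all 17 settings. Proteasome genes had 0 called of 32 (median 0.15; 4 with library sizes alone). Of 30 cell cycle genes 2 were called, the cyclin gene Ccne1 (1.5) and the replication helicase gene Mcm4 (0.91), with a median of -0.02. That count lies near the 6.32% of all genes tested that were called. The calls of Rpl12, Tagln2, Tpm4 and Tubb5 held with any 1 knockout library left out, and each of the other calls named with these ended on leaving out at least 1 of the 6 knockout libraries (edgeR adjusted p from 0.0537 to 0.191).

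Nuclear genes of mitochondrial respiration had log2 fold changes below 0, with few calls. None of 35 complex I genes and none of 40 genes of complexes II to V had a log2 fold change above 0 (medians -0.38 and -0.40), and 4 and 1 were called lower. Sdhb, the iron-sulfur subunit of complex II, stood at 145, 153 and 167 CPM in the controls and 113, 88.7 and 101 CPM after IRI (log2 fold change -0.62, SE 0.13, edgeR adjusted p = 0.02), and Ndufs1, of complex I, at 89, 107 and 108 CPM in the controls and 76.6, 62.8 and 74.3 CPM after IRI (log2 fold change -0.51, SE 0.13, edgeR adjusted p = 0.0423). The injured libraries were below the controls in both, and control replicate 1 was the nearest to them. In the Y-low pair the medians of the 2 lists were -0.12 and -0.13, and in the Y-high pair -0.61 and -0.69. Without control replicate 1 the calls were 8 and 10, with RLE scaling 4 and 6, and with DESeq2 18 and 25, and 0 and 0 without control replicate 2 or 3, injured replicate 2 or 3, or the adrenal libraries. Of 28 TCA cycle genes 5 were lower (median -0.34), among them Idh2 (-0.88) and Mdh1 (-0.89). Fatty acid oxidation and peroxisome genes were called mostly higher, with 4 higher and 1 lower of 30 (median 0.35, 0.57 in the Y-low pair). The thioesterase gene Acot2 stood at 32.3, 32.9 and 32.4 CPM in the controls and 57.4, 83.3 and 136 CPM after IRI (log2 fold change 1.5, SE 0.31, edgeR adjusted p = 0.0211), and the carnitine carrier gene Slc25a20 (0.75) and Eci1 (0.74) rose, while Etfa, which passes electrons on from acyl-CoA dehydrogenases, fell (-0.48). Injured replicate 3, with adrenal cortex and Y-linked levels as low as in control replicate 1, held the most Acot2. In the mitochondrial biogenesis list 1 of 27 was called, Pprc1, a coactivator related to PGC-1alpha, at 15.2, 17.9 and 15.5 CPM in the controls and 25.2, 42.1 and 34.9 CPM after IRI (log2 fold change 1.07, SE 0.24, edgeR adjusted p = 0.0293), and Ppargc1a, the PGC-1alpha gene, had -0.63 (edgeR adjusted p = 0.198). The 1 call of the biogenesis list lies near the 3.9% of all genes tested that were called higher. Glycolysis and gluconeogenesis genes had 2 lower of 21, Fbp1 and Ldhb (-0.55), with a median of -0.03. Each call named here ended on leaving out at least 1 of the 6 knockout libraries (edgeR adjusted p from 0.0505 to 0.178).

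The cold shock domain family of Ybx3 itself had 0 calls among 7 tested genes (median log2 fold change 0.21). Ybx1, which encodes the related Y-box protein 1, stood at 170.3, 320.4 and 284 CPM in the controls and 203, 215 and 206 CPM after IRI (log2 fold change -0.31, SE 0.22, edgeR adjusted p = 0.448), and Ybx2, the germ cell member, at 18.9, 17.4 and 20.8 CPM in the controls and 17.3, 7.51 and 13 CPM after IRI (log2 fold change -0.59, SE 0.37, edgeR adjusted p = 0.385). The groups overlapped for Ybx1, of which control replicate 1 held less than every other knockout library, and all 3 injured libraries lay below the controls for Ybx2. Skeletal muscle and adipose lists, which could show other tissue in a kidney sample, had 0 calls among 6 and 10 tested genes.

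Wild-type kidneys, fitted together with these libraries, changed in the same direction for most of the genes called in the knockout. In wild type 4320 genes passed the edgeR threshold, 22.5% of those tested, 2512 higher and 1808 lower. Of the genes called in the knockout, 608 higher (81.2% of the knockout list and 24.2% of the wild-type list) and 320 lower (68.7% and 17.7%) were called in the same direction in wild type, and 0 in the opposite one, adrenal genes counted. The other 287 were called in the knockout and not in wild type, which does not show that they differ between the genotypes. The summed Y-linked level was 1.14, 1.79 and 1.54 CPM in the wild-type controls and 207, 33.2 and 307 CPM in the wild-type injured libraries. Genotype, Y-linked level and injury are therefore crossed unevenly, and 306 genes were called in wild type once that level entered the fit. The difference of the 2 responses was tested directly, and edgeR called 0 genes (smallest adjusted p = 0.666), with 1350 genes, or 7.02%, at an unadjusted p under 0.05. DESeq2 called 33 and limma-voom 0. The log2 fold changes in knockout and wild type were 8.0 and 8.84 for Havcr1, 6.54 and 7.7 for Lcn2, and 8.95 and 9.25 for Krt20.

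The 5 genes with the smallest interaction p are given as values, since none passed the adjusted threshold. Pla2g2c, a phospholipase gene, had log2 fold changes of 1.05 in knockout and -2.21 in wild type, an edgeR difference of 3.25 (SE 0.51, unadjusted p = 4.21e-05). Serpina1b, an alpha-1 antitrypsin gene of a family of near-identical copies, had 0.12 and 3.41, an edgeR difference of -3.29 (SE 0.68, unadjusted p = 0.000535). In the knockout Serpina1b stood at 8.48, 34.7 and 33.4 CPM in the controls and 29.3, 38.3 and 15.4 CPM after IRI, and control replicate 1 was the lowest; without it the knockout log2 fold change was -0.30. The edgeR differences of Gm8982, Podxl2 and Aldh1b1 were -2.36 (SE 0.48, unadjusted p = 0.000377), 2.34 (SE 0.49, unadjusted p = 0.000559) and 2.34 (SE 0.50, unadjusted p = 0.000662). Among genes called in the knockout, Aldh1a2 had 3.16 in knockout and 1.75 in wild type (edgeR interaction adjusted p = 0.666), and Hmox1 2.4 and 4.29 (edgeR interaction adjusted p = 0.666).

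**Figure D5:**
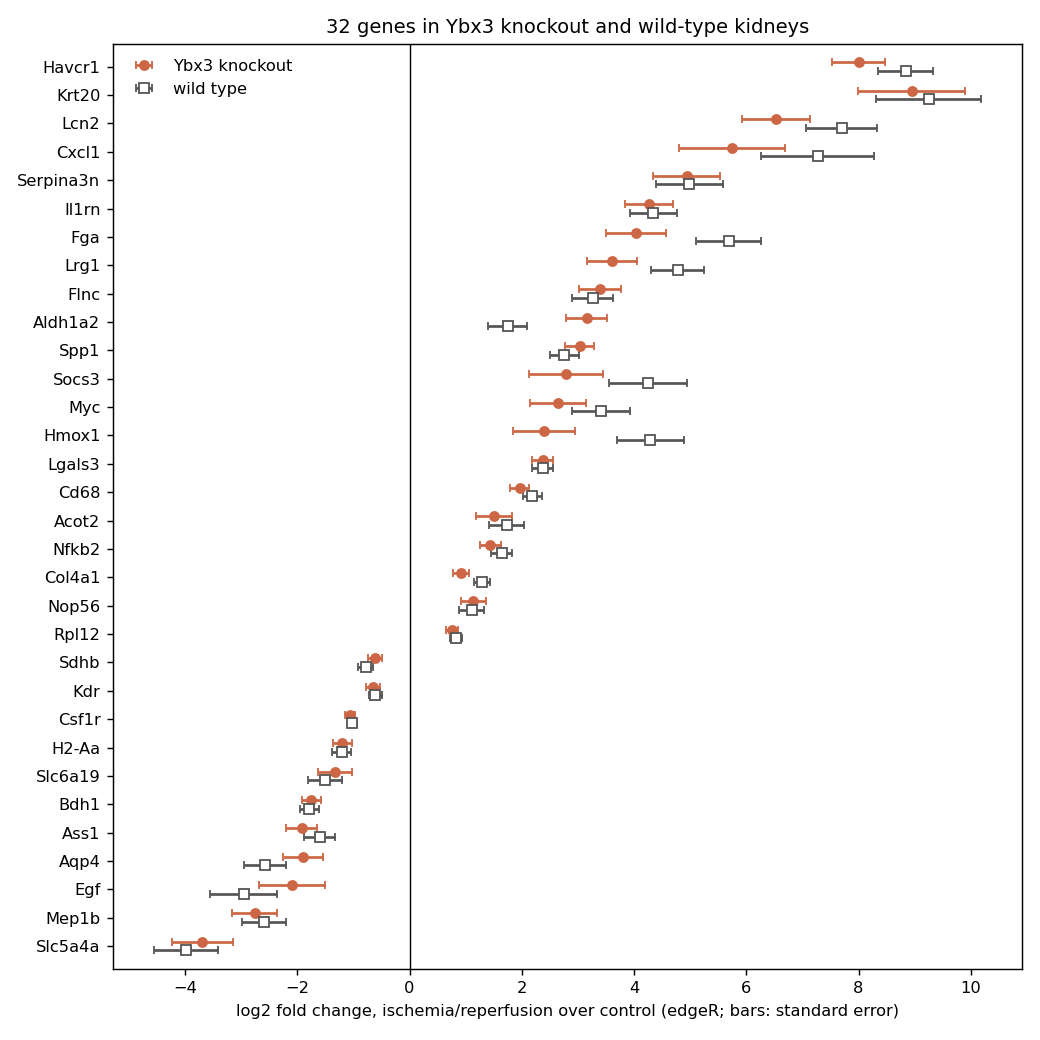
Log2 fold change of IRI over control for 32 genes named in the text, in knockout (filled circles) and wild-type kidneys (open squares), with the standard error of the edgeR fit as bars (3 libraries a group). The signs are the same for these 32 genes, which are a picked set, and for 1190 of all 1215 called genes. AI481877, named in the text and not drawn here, had -4.28 in knockout and 0.99 in wild type. No gene passed the edgeR test of the difference between genotypes.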

How the data were processed

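RNA was depleted of ribosomal RNA, made into strand-marked paired-end libraries and sequenced on an Illumina NovaSeq, per the labels' protocols. The submitters' processing notes name the aligner STAR and the mouse build mm10; they name no counting tool or strand setting. The authors deposited 1 table of raw counts per gene for all 12 libraries, with no normalization. Of its 42748 genes, 15562 were at 0 in every library.

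Genes passing edgeR's filterByExpr (minimum count 10, minimum total 15; 19218 genes) were scaled by TMM and fitted with edgeR 4.0.16 quasi-likelihood (R 4.3.3) over all 12 libraries, 1 term a group; a gene is called at a p under 0.05 after Benjamini-Hochberg adjustment across the tested genes. CPM are counts per 1000000 counts of the TMM-scaled library. Overlapping genes and near-identical copies can share counts, and without the counting setting antisense partners cannot be told apart. No 2 libraries of the same group were copies of each other, and pairs across groups were not compared. DESeq2 1.42.0, limma-voom (limma 3.58.1), other scalings and filters, a replicate block, a Y-linked covariate and left-out libraries were tried as alternatives. On simulated counts the knockout test recovered 95 of 100 4-fold changes and 45 of 100 2-fold changes, with 5 false calls among 19218 genes. The simulation held no adrenal or Y-linked difference between libraries of a group. Its changed genes all had a control mean above 1 CPM, so it does not measure recovery below that level.

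The members, the gene lists and the pairs were chosen with earlier results of these data known. Genes were named by rule: up to 12 called protein-coding genes a direction with the largest log2 fold change at 1 CPM or more without overlap, outside the adrenal and Y-linked lists; up to 3 called genes a direction of each of 44 lists; a fixed set of 15 genes; and the 5 smallest interaction p-values. Other genes were named after their values were seen, and the results of some genes are not reported here. Gene names come from GENCODE M21, which matched 42548 identifiers, and start regions from RefSeq's GRCm38.p6.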

Additional observations from a re-analysis of the deposited data

How the results depend on the processing

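The knockout count of 1215 called genes lay within 1.5 times under RLE scaling (1202), library sizes alone (1531), scaling without the adrenal lists and Rn7s1, Rn7s2 and Rn7sk (1204), only the groups compared (1590), limma-voom (1073), a filter of 1 CPM in 3 libraries (1171), no filter (1047) and the Y-linked covariate (1111). It was 2494 with DESeq2 and 44 without the adrenal libraries, which leaves 1 injured knockout library. With 1 knockout library left out it ran from 178 to 1407. The wild-type count of 4320 fell to 306 with the Y-linked covariate and ran from 3400 to 4408 with 1 knockout library left out. The interaction count was 33 with DESeq2 and ran from 0 to 25, the 25 arising without control replicate 1. The cause was not tested for any of these.

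With the replicate number as a block the counts were 469 in knockout, 2730 in wild type and 0 in the interaction. Whether the numbers pair the samples is not known. Deviations of same-numbered control and injured knockout libraries correlated at -0.035, 0.032 and -0.063. With 3 libraries a group this cannot settle it, and the block is not read as a paired test.

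The 224 called genes checked were those named by rule, the called members of the lists and the 39 called in all 17 settings. The 39 were put in because they held, so they are kept in every setting by design. The shares kept therefore do not stand for all 1215 calls. Of the 224, 210 calls were kept with RLE scaling, 173 with limma-voom, 110 with the block and 189 with the covariate. With 1 library left out, 166, 74 and 78 were kept (controls 1, 2 and 3) and 188, 81 and 111 (injured 1, 2 and 3). Signs turned without the adrenal libraries for Cyp11a1 (-0.19), Cyp21a1 (-1.17), Chga (-0.62), Chgb (-0.20), Scg2 (-1.28), Hsd3b1 (-1.19), Akr1b7 (-0.26) and the uncalled Serpina1b (-0.74), all as log2 fold changes. With 1 library left out Serpina1b ran from -0.30 to 0.40, turning without control replicate 1 (-0.30) and injured replicate 2 (-0.21). Each group has 3 libraries, injured replicate 3 is the shallowest of the 6, and genes under 1 CPM rest on few counts.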
